A study of Mus musculus with 28 samples.

Results

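The genes described here are 10 genes of bile acid synthesis and transport, chosen by name from the 54446 genes listed in each library: Cyp7a1, Cyp8b1, Cyp27a1, Cyp39a1, Nr1h4, Nr0b2, Slc10a1, Abcb11, Baat and Slc27a5. They were followed mainly in the liver of mice gavaged with nicotinamide mononucleotide (NMN, a precursor of NAD+) or with water, with the kidney as contrast. All mice were males aged 8 weeks, of the strain C57BL/6 in the labels and C57BL6J in the article, with no genetic change, gavaged for 7 days on one of 2 schedules. On the 1340 mg/kg/d schedule mice received 1 gavage a day, with 4 water and 4 NMN libraries per organ. On the 2680 mg/kg/d schedule they received 2 gavages a day, with 3 water and 3 NMN libraries per organ. Dose and number of gavages therefore cannot be told apart, and nothing in the labels says which liver and which kidney came from the same mouse.

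Poly(A)-selected RNA was sequenced, and 28 libraries held between 12688324 and 33872983 reads counted on genes. The liver libraries ran from 12688324 to 16455228 counted reads on the 1340 mg/kg/d schedule and from 17573184 to 20635269 on the 2680 mg/kg/d schedule. The kidney libraries ran from 13174264 to 15696435 and from 16358886 to 33872983. Levels are given as CPM, read counts relative to the TMM-scaled size of each library within an organ and schedule, unless another scale is named. The hepatocyte markers Alb, Apoa1, Ttr, Serpina1c and Tat together reached 100797 ± 14064 CPM in the water livers of the 1340 mg/kg/d schedule (SD, n = 4) and 147156 ± 7934 CPM with 2680 mg/kg/d (SD, n = 3). 1 liver library stood apart: in NMN replicate 4 of the 1340 mg/kg/d schedule 12.8% of the reads fell outside genes, against 4.91% to 7.44% in the other livers of that schedule.

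Bile acids are made from cholesterol in hepatocytes. The classical route opens with Cyp7a1 and the alternative route with Cyp27a1, and the products are linked to taurine or glycine before they are secreted into bile. Most bile acids return from the intestine and are taken up again by hepatocytes. The receptor FXR, encoded by Nr1h4, senses bile acids in the nucleus and induces Nr0b2, which encodes the repressor SHP, so that rising bile acids lower their own synthesis. Transport out of the hepatocyte into bile runs through the canalicular pump encoded by Abcb11.

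The levels in water mice were first compared between the 10 genes, per kilobase of exon. In 7 water livers the level of Slc27a5, the ligase that activates bile acids for conjugation, was 509.6 ± 29.1 CPM per kilobase (SD, n = 7), and that of Slc10a1, the sodium-dependent carrier that takes conjugated bile acids up from blood, was 490.7 ± 189 CPM per kilobase (SD, n = 7). Their order turned with the schedule. With 1340 mg/kg/d Slc27a5 ran from 463 to 549 CPM per kilobase and Slc10a1 from 282 to 416, without overlap, while with 2680 mg/kg/d Slc10a1 stood at 498, 752 and 751 and Slc27a5 at 501, 533 and 523. Cyp27a1, the mitochondrial sterol side-chain hydroxylase, followed at 321 ± 44.7 CPM per kilobase, then Baat, the conjugating enzyme, at 223 ± 31.0, and Cyp8b1, the enzyme that directs the pathway to cholic acid, at 190.0 ± 64.6 (SD, n = 7 each). Baat and Cyp8b1 overlapped. Abcb11 stood at 132 ± 20.9 CPM per kilobase, Nr1h4 at 76.7 ± 10.5 and Nr0b2 at 71.6 ± 29.4 (SD, n = 7 each), the last 2 within each other's spread. Cyp7a1, the rate-limiting enzyme of the classical route, was low at 23.0 ± 16.7 CPM per kilobase, and Cyp39a1, an oxysterol hydroxylase, was lowest at 7.67 ± 2.27 (SD, n = 7 each). Cyp7a1 ranged from 7.33 to 45.3 CPM per kilobase across these livers and so crossed the upper values of Cyp39a1, which ended at 10.9.

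**Figure D1:**
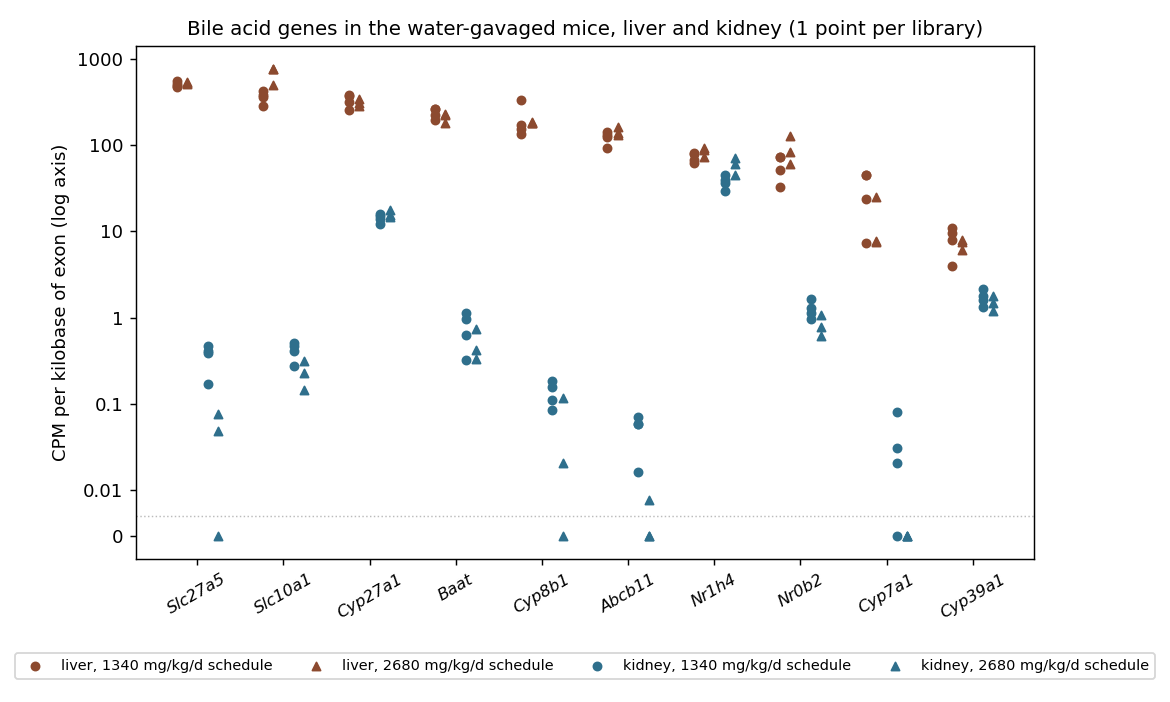
Levels of the 10 genes in the water-gavaged mice, in CPM per kilobase of exon on a log axis, with 1 point per library, liver in brown and kidney in blue, circles for the 1340 and triangles for the 2680 mg/kg/d schedule. Nr1h4 is the gene in which liver and kidney points overlap, points below the dotted line have 0 counts, and Cyp7a1 lies there in the 3 kidneys of the 2680 mg/kg/d schedule and 1 of the other schedule.

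In liver against kidney, all 10 genes were higher in the liver (edgeR's quasi-likelihood test, adjusted p by Benjamini-Hochberg from 2.81e-17 to 1.5e-05), in a comparison in which 76.3% of 15912 genes were called and 34.4% were higher in liver. With at least 10 counts required in every library, 5 were tested and called: Cyp27a1, Cyp39a1, Nr1h4, Nr0b2 and Baat. The others entered the main test through their liver counts, so for them the test is no separate evidence of the difference. The groups did not overlap for 9 of the 10, against 48.2% of all tested genes. For the genes that entered through their liver counts this too is no separate evidence. The difference was smallest for Nr1h4, at 0.76 ± 0.12 on the log2 scale (SE), and its libraries overlapped between organs. The direction of Nr1h4 turned with the scaling: in the same water libraries without TMM scaling it had a log2 difference of -0.21 ± 0.13 (SE, adjusted p 0.126 by edgeR), while the other 9 genes were again called higher in liver. Unscaled CPM of Nr1h4 averaged 123 ± 17.96 in water livers and 127 ± 24.6 in water kidneys with 1340 mg/kg/d (SD, n = 4 each), and 129 ± 17.0 and 175 ± 36.3 with 2680 mg/kg/d (SD, n = 3 each). Without TMM scaling 2056 of all tested genes were called higher and 11718 lower in liver, against 5478 and 6655 with it. In kidney Nr1h4 reached 46.2 ± 14.4 CPM per kilobase, Cyp27a1 14.9 ± 1.66, Cyp39a1 1.63 ± 0.323 and Nr0b2 1.07 ± 0.343 (SD, n = 7 each). The remaining 6 genes stayed below 0.7 CPM per kilobase on average in kidney. Their kidney values stood beside those of hepatocyte genes: over all libraries of the 1340 mg/kg/d schedule Alb in kidney was 0.123% of its liver level, Slc27a5 0.124%, Cyp8b1 0.134%, Abcb11 0.0826%, Cyp7a1 0.228%, Slc10a1 0.238% and Baat 0.614%, all in CPM without TMM scaling. In the 2680 mg/kg/d schedule the share was 0.0113% for Alb, 0.00694% for Abcb11, 0.019% for Slc27a5, 0.0398% for Cyp8b1, 0.0557% for Slc10a1 and 0.408% for Baat. The hepatocyte markers themselves spread: Ttr in kidney was at 1.61% of its liver level on both schedules, above Baat, while at 2680 mg/kg/d Serpina1c was at 0.0542% and Tat at 0.00386%. Kidney genes showed the like in liver, with Kap, an androgen-regulated tubule gene, at 0.143% of its kidney level on the 1340 mg/kg/d schedule. Whether these low values were made by kidney cells was not tested. With 1340 mg/kg/d Nr0b2 at 4.10%, Cyp27a1 at 8.30% and Cyp39a1 at 39.8% of their liver levels lay above the shares of Alb and Ttr, as did Nr0b2 at 2.58%, Cyp27a1 at 7.93% and Cyp39a1 at 21.1% with 2680 mg/kg/d.

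The promoter windows of the 10 genes were read next where they were available, and those of Cyp8b1, Nr0b2, Cyp27a1 and Slc10a1 are printed. Cyp8b1 and Nr0b2 did not pass the test in liver, as given below. The windows of Nr1h4 and Abcb11, without a match, are not printed. The RefSeq table used here matched 6 of the 10 genes, with Cyp7a1, Cyp39a1, Baat and Slc27a5 unmatched, and the windows were read on the GRCm38.p6 build, in the direction of the gene. They are printed as the 250 bases before the start site. Each window, with the 50 bases after the start, was searched on both strands for CAAGGNCA (the LRH-1 motif), AGGTCA followed after any 1 base by TGACCT (the inverted repeat bound by FXR) and TTATGTAA (the D-box). Capitals mark a match to CAAGGNCA, which was found in Cyp8b1, 60 bases before the start, and in Nr0b2, 201 bases before it. Of 32851 RefSeq promoters of the same length 6.71% held this motif, 0.938% the D-box and 0.009% the inverted repeat. Only exact matches were searched for. The Abcb11 window held aggccattgacct, 1 base off the inverted repeat, and near forms were not counted in any window. Cyp27a1 and Slc10a1, both past the test in liver, are shown without a match, Slc10a1 by the first of the 2 windows in the table.
Cyp8b1, chr9:121916306-121916555, minus strand: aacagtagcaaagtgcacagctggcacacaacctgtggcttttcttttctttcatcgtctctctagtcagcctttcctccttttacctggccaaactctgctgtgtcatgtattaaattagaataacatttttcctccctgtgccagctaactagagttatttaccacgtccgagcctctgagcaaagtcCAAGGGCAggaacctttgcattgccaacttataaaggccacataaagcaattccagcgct
Nr0b2, chr4:133553126-133553375, plus strand: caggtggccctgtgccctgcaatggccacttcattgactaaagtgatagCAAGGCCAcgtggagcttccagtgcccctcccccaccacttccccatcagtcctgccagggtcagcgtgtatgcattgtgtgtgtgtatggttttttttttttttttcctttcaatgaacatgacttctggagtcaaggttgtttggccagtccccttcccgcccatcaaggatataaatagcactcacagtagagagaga
Cyp27a1, chr1:74713285-74713534, plus strand: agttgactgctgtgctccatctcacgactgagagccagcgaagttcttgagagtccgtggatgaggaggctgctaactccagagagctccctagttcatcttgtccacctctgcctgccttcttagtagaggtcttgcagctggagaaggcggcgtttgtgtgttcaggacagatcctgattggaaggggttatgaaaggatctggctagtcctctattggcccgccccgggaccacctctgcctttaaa
Slc10a1, chr12:80968706-80968955, minus strand: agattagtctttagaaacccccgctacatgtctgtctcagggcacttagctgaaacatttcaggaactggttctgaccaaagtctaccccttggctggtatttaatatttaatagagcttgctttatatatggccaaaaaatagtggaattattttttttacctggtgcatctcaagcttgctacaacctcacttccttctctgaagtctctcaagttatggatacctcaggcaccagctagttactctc

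In the livers of mice given 2680 mg/kg/d NMN, Cyp39a1 and Cyp27a1 rose and Slc10a1 fell. Cyp39a1 was 3.31-fold higher, Cyp27a1 1.63-fold higher and Slc10a1 was at 0.498 of the water level. These 3 of 10 members passed the test, against 7.08% of 12477 tested genes (3.05% up and 4.03% down). The members and the lists were chosen with earlier results of these data known. Their shares are therefore no separate evidence of a change in the pathway. At an unadjusted p under 0.05 there were 5 of 10, against 24.6% of all tested genes, and Cyp39a1 was the 1 member with an adjusted p under 0.01 and a fold over 2 or under 0.5, which 1.08% of tested genes reached. The median log2 fold change of the 10 genes was -0.25, against 0.0045 over all tested genes. In bulk tissue, fewer cells of a type and less RNA per cell cannot be told apart.

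Cyp39a1 stood at 15.7, 16.8 and 13.4 CPM in the water livers of the 2680 mg/kg/d schedule and at 57.9, 46.6 and 47.6 CPM in the NMN livers. All NMN livers lay well above all water livers. The log2 difference was 1.73 ± 0.17 (SE), with an adjusted p of 0.00059 (edgeR's quasi-likelihood test, Benjamini-Hochberg). Cyp39a1 kept its call when any 1 of the 6 libraries was left out, with adjusted p from 0.000357 to 0.00625 in that test.

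Cyp27a1 read 423, 521 and 486 CPM in water livers and 663, 820.1 and 844 CPM in NMN livers. The groups did not overlap, and the log2 difference was 0.70 ± 0.15 (SE), adjusted p 0.0185 by edgeR. The call was lost on leaving out water replicate 1, water replicate 2, water replicate 3 or NMN replicate 3 (adjusted p 0.0848, 0.0626, 0.0549 and 0.0779 by edgeR), while the log2 difference stayed between 0.62 and 0.80.

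Slc10a1 read 757, 1156 and 1196 CPM in water livers and 409, 607 and 534 CPM in NMN livers, again without overlap. NMN and water differed by -1.005 ± 0.20 on the log2 scale (SE), adjusted p 0.0169 by edgeR. The call was lost without water replicate 2, water replicate 3 or NMN replicate 3 (adjusted p 0.0822, 0.0572 and 0.0630 by edgeR), and the log2 difference stayed between -1.19 and -0.87. The water livers of the 2680 mg/kg/d schedule themselves were higher in Slc10a1 than those of the 1340 mg/kg/d schedule. On a joint scale they averaged 1041 ± 239.5 CPM (SD, n = 3) against 566 ± 87.3 CPM (SD, n = 4), a log2 difference of 0.88 ± 0.17 (SE) with an adjusted p of 0.0114 by edgeR. Of the 10 members only Slc10a1 passed that comparison, in which 4.44% of 12541 genes were called. Its call was lost without water replicate 2 or 3 of the 2680 mg/kg/d schedule (adjusted p 0.0663 and 0.0617 by edgeR). The NMN livers at 2680 mg/kg/d, at 409 to 607 CPM, lay within or just below the 467 to 681 CPM of the water livers at 1340 mg/kg/d, each on the scale of its own schedule. Markers of other cells differed there too. Of the 5 kidney tubule markers tested, 3 were called lower with 2680 mg/kg/d (Umod, Slc12a1 and Slc34a1), and the list summed to 3.7 ± 4.4 CPM against 41.9 ± 1.7 CPM, each on the scale of its own schedule (SD, n = 3 and 4). Stab2 and Clec4g of sinusoidal endothelium, Reln of stellate cells and Alb were called higher. The mitochondrial share was 5.74% to 7.37% against 3.89% to 5.34%. The part of these in the result was not tested. Neither the labels nor the article says how libraries were divided between preparations or sequencing instruments. Any such division along the schedules cannot be told apart from the schedule.

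Of the other synthesis enzymes among the 10 genes, Cyp7a1 and Cyp8b1 were lower in all NMN livers than in all water livers but missed the threshold. Cyp7a1 read 21.9, 72.6 and 23.6 CPM in water livers and 21.5, 16.3 and 18.4 CPM in NMN livers. The highest NMN liver lay barely below the lowest water liver, and a single water liver made most of the difference. Between the groups the log2 difference was -1.07 ± 0.48 (SE), adjusted p 0.229 by edgeR, and without water replicate 2 it was -0.28. Cyp8b1 read 240.5, 252 and 253 CPM in water livers and 104, 189.6 and 201 CPM in NMN livers, with a log2 difference of -0.59 ± 0.22 (SE) and an adjusted p of 0.128 by edgeR. On leaving out 1 library that difference ran from -0.76 to -0.35. The water livers of Cyp8b1 lay close together and the NMN livers spread below them. The promoter of Cyp8b1, like that of Nr0b2, was printed with a match to the LRH-1 motif, and Nr5a2, which encodes LRH-1, had a log2 difference of 0.31 ± 0.19 (SE), adjusted p 0.342 by edgeR.

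Of the regulators, Nr1h4 read 116, 147 and 144 CPM in water livers and 94.0, 114 and 111 CPM in NMN livers. The NMN livers lay below the water livers, with a log2 difference of -0.35 ± 0.15 (SE), adjusted p 0.176 by edgeR. Nr0b2 overlapped between groups, at 71.8 ± 25.1 CPM in water and 47.1 ± 20.3 CPM in NMN livers (SD, n = 3 each), adjusted p 0.355 by edgeR. The FXR target Abcb11 was at 523 ± 73.7 CPM in water and 567 ± 91.5 CPM in NMN livers, Baat at 284 ± 30.6 and 256 ± 11.5 CPM, and Slc27a5 at 892 ± 42.2 and 806 ± 34.2 CPM (SD, n = 3 each), all overlapping and none past the test. The 95% interval of the log2 difference was -0.20 to 0.43 for Abcb11, -0.42 to 0.11 for Baat and -0.38 to 0.09 for Slc27a5. In all, 6 of the 10 genes had groups that did not overlap, against 29.8% of the tested genes.

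**Figure D2:**
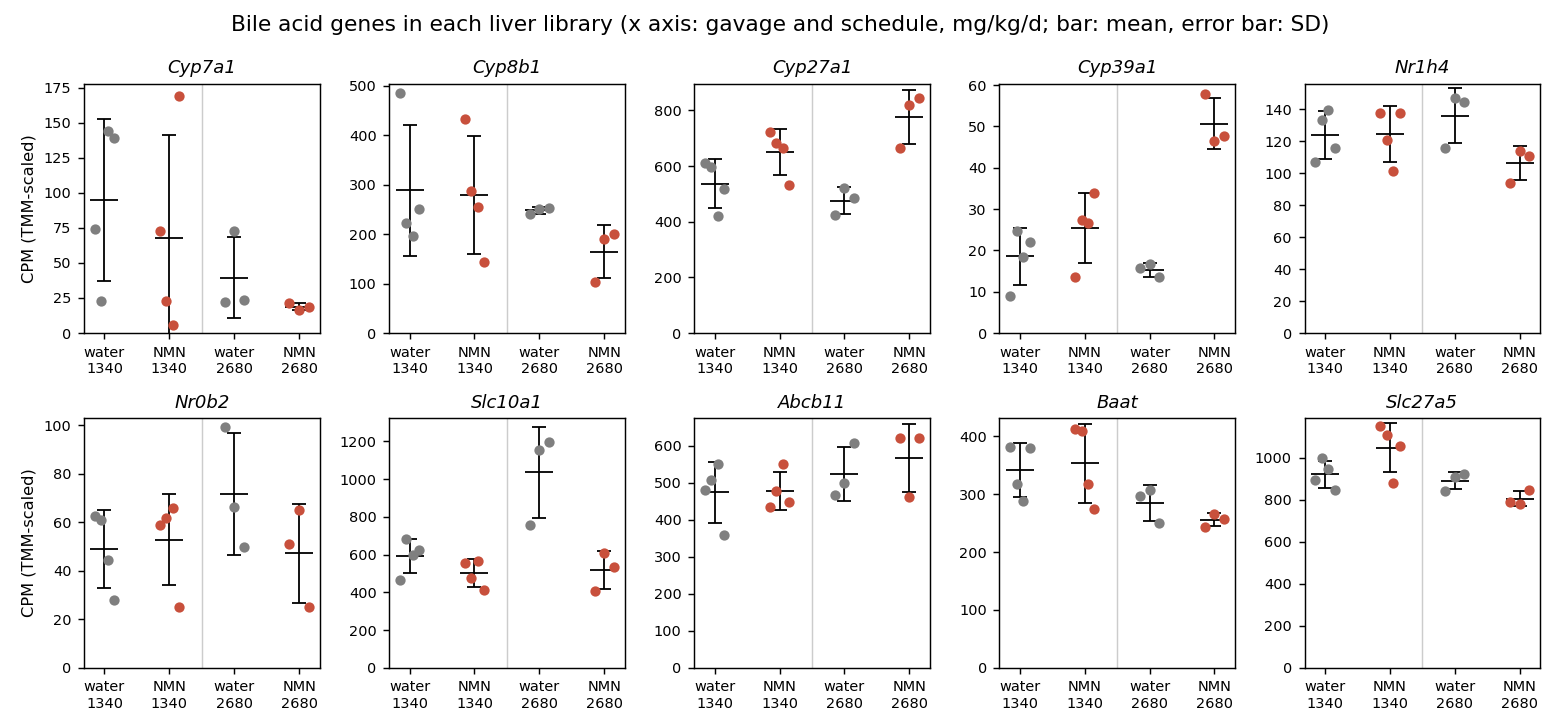
Expression of the 10 genes in each liver library, in TMM-scaled CPM on linear axes from 0, with points for libraries, a bar for the mean and an error bar for the SD (where it would pass below 0 it is cut there), water in grey and NMN in red. At 2680 mg/kg/d the NMN points of Cyp39a1 and Cyp27a1 sit above, and those of Slc10a1 below, all water points.

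Other liver genes moved in the same comparison. Of the 5 hepatocyte markers Ttr and Serpina1c fell, by 0.97 and 0.58 on the log2 scale (adjusted p 0.00227 and 0.0196 by edgeR), and Alb, the most abundant of them, had a log2 difference of -0.36 ± 0.11 (SE, adjusted p 0.075 by edgeR). Apoa1 had a log2 difference of -0.31 and Tat, a tyrosine-degrading enzyme, of 0.18, with Tat at 1193, 1243 and 872 CPM in water and 813, 1565 and 1373 CPM in NMN livers. The summed hepatocyte markers were at 147156 ± 7934 CPM in water and 113019.9 ± 7121 CPM in NMN livers (SD, n = 3 each). None of the tested markers of bile duct cells (5 of 6 tested), Kupffer cells (5 of 5), stellate cells (5 of 5), sinusoidal endothelium (4 of 4), lymphoid cells (2 of 4), kidney tubule (1 of 7) or podocytes (1 of 3) passed the test. Of 5 red cell markers Alas2, the erythroid heme synthesis enzyme, fell, with a log2 difference of -1.72 (edgeR adjusted p 0.00121), and the list summed to 120.9 ± 10.9 CPM in water and 56.6 ± 23.5 CPM in NMN livers (SD, n = 3 each). Alas2 was the top gene of that sum in every liver of this schedule but NMN replicate 3, where Hbb-bs was. The other 4 genes, all globins, did not pass, with a median of 0.08 over the list and the highest globin, Hbb-bs, at 13.3, 12.6 and 5.15 CPM in water and 3.85, 5.31 and 32.2 CPM in NMN livers. Between organs Alas2 did not follow Hbb-bs. In water mice it ran from 47.1 to 81.1 CPM per kilobase in liver and from 0.0575 to 1.28 in kidney. Hbb-bs ran from 8.69 to 25.0 and from 3.90 to 80.55. The exons of Alas2 also overlap those of Apex2. Of 5 gut and pancreas markers, 3 of them tested, Lgals4 rose by 2.79 and Cela1 fell by 2.17 (adjusted p 0.000967 and 0.000731 by edgeR), and the list summed to 62.2 ± 3.6 and 43.6 ± 11.2 CPM (SD, n = 3 each). The part of these markers in the result was not tested. NMN replicate 1 held more Kap, the kidney tubule gene, than the other livers of the 2680 mg/kg/d schedule, at 21.3 CPM against 0.515 to 6.12 CPM, and without that library Cyp39a1, Cyp27a1 and Slc10a1 all passed the test. Reads outside genes were 3.62%, 3.27% and 3.47% of the water libraries and 5.06%, 3.90% and 4.21% of the NMN libraries, without overlap, and the mitochondrial share of counted reads was 6.91%, 5.74% and 7.37% against 9.24%, 7.16% and 7.04%. Their part in the result was not tested.

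At 1340 mg/kg/d NMN, none of the 10 genes passed the test in liver, where 0.0161% of 12449 tested genes did (2 genes). At an unadjusted p under 0.05 none of the 10 did either, against 6.86% of all tested genes, and DESeq2 called none of them. No member had groups without overlap, against 3.53% of all tested genes. Their median log2 fold change was 0.03, against -0.0027 over all tested genes. Cyp39a1 read 9.02, 24.7, 18.4 and 22.03 CPM in water livers and 13.6, 27.5, 26.5 and 33.9 CPM in NMN livers. The groups overlapped, and the log2 difference was 0.45 ± 0.33 (SE), adjusted p 0.841 by edgeR. Leaving out 1 library moved it from 0.22 to 0.65. Cyp27a1 read 613, 597, 419 and 517 CPM in water and 722, 684, 664 and 530.5 CPM in NMN livers. Slc10a1 read 467, 681, 598 and 627 CPM in water and 556, 476, 566 and 412 CPM in NMN livers. These groups overlapped as well, with log2 differences of 0.28 ± 0.15 and -0.24 ± 0.15 (SE), adjusted p 0.794 and 0.821 by edgeR.

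Cyp7a1 varied widely among mice of 1 group. Water livers at 1340 mg/kg/d held 74.0, 22.8, 144 and 139 CPM, and NMN livers 73.0, 23.0, 5.59 and 169 CPM. The lowest and the highest of these 8 libraries were both NMN livers. Between NMN and water the log2 difference was -0.49 ± 1.06 (SE), with a 95% interval from -2.57 to 1.59, and without NMN replicate 4 (the library that stood apart) it was -1.49 (adjusted p 0.92 by edgeR). Without that library none of the 10 genes passed the test. With each library left out in turn, the log2 difference of Cyp7a1 ran from -1.49 to -0.10. Dbp, an output gene of the circadian clock, also ranged widely, at 0.633, 94.2, 139 and 129 CPM in water livers and 6.09, 4.11, 18.9 and 126 CPM in NMN livers of that schedule, in the same library order. At 2680 mg/kg/d Dbp read 0.412, 135 and 64.9 CPM in water livers and 9.42, 59.6 and 25.1 CPM in NMN livers. Water replicate 1, far below the others in Dbp, was also the lowest water liver for Slc10a1, and without it the log2 difference of Slc10a1 was -1.19, still past the test. NMN replicate 1 was likewise the lowest NMN liver of that schedule for both genes. At 1340 mg/kg/d water replicate 1 was lowest in both genes too. NMN replicate 4 of that schedule went the other way, highest in Dbp and lowest in Slc10a1 (412 CPM). In kidney at 2680 mg/kg/d Dbp read 8.24, 112 and 103 CPM with water and 31.3, 124 and 100 CPM with NMN, again lowest in replicate 1. The part of the clock in the values of Cyp7a1 and Slc10a1 was not tested.

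**Figure D3:**
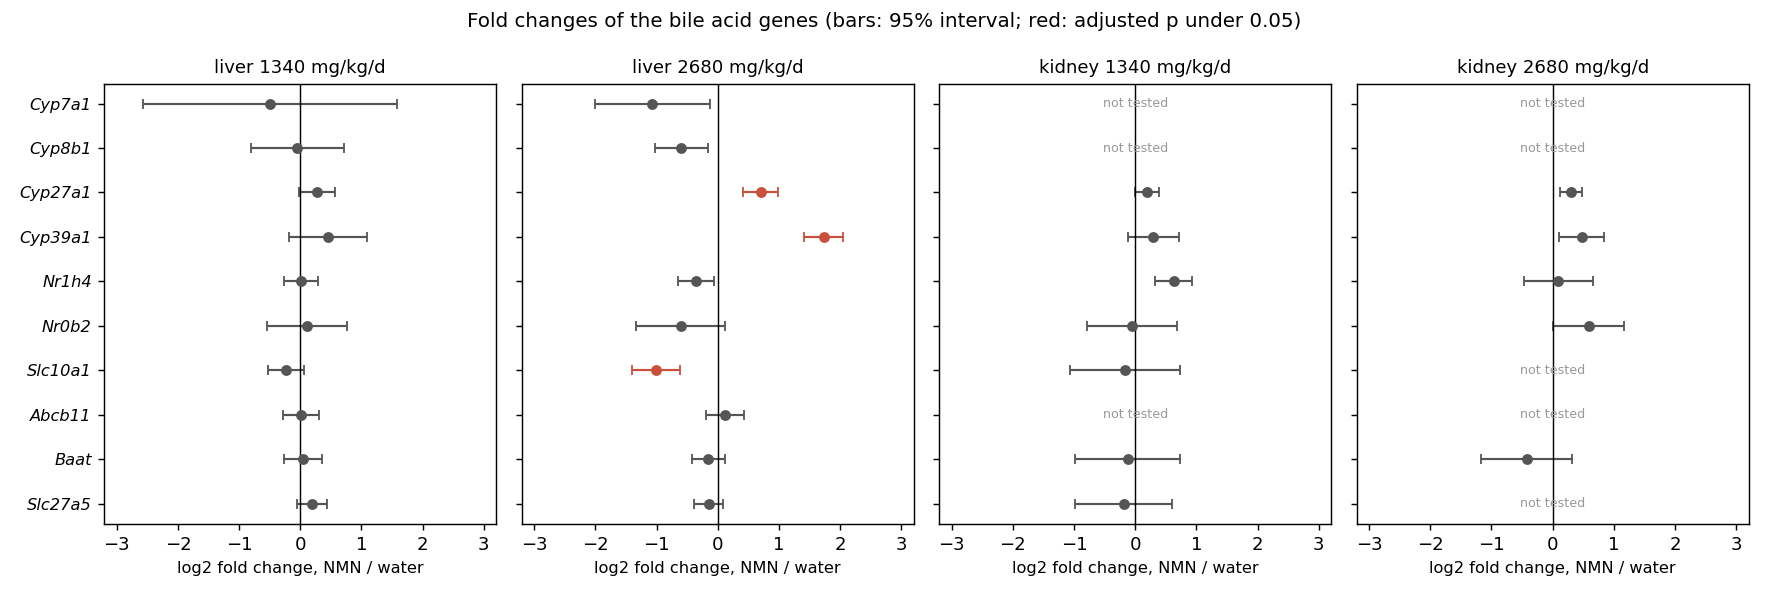
Log2 fold change of each of the 10 genes for NMN against water in liver and kidney on both schedules, with the fitted value as a point and its 95% interval as a bar, red where the adjusted p was under 0.05. Only Cyp39a1 (1.73), Cyp27a1 (0.70) and Slc10a1 (-1.005) in liver at 2680 mg/kg/d are red, and genes with too few counts are written as not tested.

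A call at 2680 but not at 1340 mg/kg/d does not show that the schedules differ, so the difference itself was tested over the 14 livers. None of the 10 genes passed, against 0.0746% of 13412 tested genes. At an unadjusted p under 0.05 Cyp39a1 and Slc10a1 did, against 8.6% of all tested genes, and DESeq2 called none. With the replicate number as a block Cyp39a1 was called, at 1.27 (adjusted p 0.0481 by edgeR). The NMN effect on Cyp39a1 was larger by 1.29 ± 0.42 on the log2 scale (SE) at 2680 mg/kg/d (adjusted p 0.363 by edgeR), that on Slc10a1 was more negative, by -0.75 ± 0.26 (adjusted p 0.37), and that on Cyp27a1 larger by 0.44 ± 0.22 (adjusted p 0.607). The 95% interval of the Cyp39a1 difference ran from 0.47 to 2.11.

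In kidney, none of the 10 genes passed the test on either schedule. On the 1340 mg/kg/d schedule 7 of the 10 had enough counts to be tested, and 0.12% of 14972 genes were called. Nr1h4 read 98.2, 124, 153 and 133 CPM in water kidneys and 248, 209, 173 and 156 CPM in NMN kidneys, so that all NMN kidneys lay above all water kidneys. The log2 difference was 0.63 ± 0.15 (SE), adjusted p 0.151 by edgeR, while DESeq2 gave 0.00887. 5.12% of all tested genes had groups without overlap in that comparison. Nr1h4 was the 1 member with an unadjusted p under 0.05 there, against 8.94% of all tested genes. None of 7 kidney tubule and 3 podocyte markers passed the test, but 4 tubule markers had groups without overlap, with Umod and Slc12a1 higher and Slc34a1 and Slc5a2 lower in NMN kidneys. The tubule list, with Kap as its most abundant gene, summed to 34042 ± 4613 CPM in water and 27621 ± 2975 CPM in NMN kidneys, and the podocyte list to 271 ± 53.2 and 335 ± 70.3 CPM (SD, n = 4 each). The NMN kidneys held 13174264 to 14006288 counted reads and the water kidneys 15354270 to 15696435, without overlap. The part of markers and depth in the values of Nr1h4 was not tested.

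On the 2680 mg/kg/d schedule 5 of the 10 genes were tested in kidney, and 0.4% of 15245 genes were called. Cyp39a1 read 4.83, 5.96 and 7.21 CPM in water kidneys and 10.01, 7.23 and 7.77 CPM in NMN kidneys, a log2 difference of 0.48 ± 0.19 (SE) with an adjusted p of 0.364 by edgeR. Its lowest NMN kidney lay barely above its highest water kidney. Cyp27a1 read 41.2, 49.9 and 44.1 CPM in water and 51.3, 56.0 and 59.4 CPM in NMN kidneys, a log2 difference of 0.30 ± 0.09 (SE) with an adjusted p of 0.232 by edgeR. Both genes, and Nr0b2, had groups that did not overlap, against 17.2% of the tested genes. None of 7 kidney tubule and 3 podocyte markers passed the test, but Kap, Slc34a1 and Slc5a2 were lower and Podxl higher in all NMN kidneys than in all water kidneys. The tubule list, most of it Kap, summed to 29822, 28317 and 30479 CPM in water and 21161, 26707 and 21870 CPM in NMN kidneys. The NMN kidneys held 22922994 to 33872983 counted reads and the water kidneys 16358886 to 18983689, without overlap. The part of markers and depth in the result was not tested. Cyp27a1 and Cyp39a1 had an unadjusted p under 0.05, against 11.1% of all tested genes, and DESeq2 called no member. Cyp7a1 had 0 counts in all 6 kidneys of this schedule, which allows up to 0.0572 CPM over the 3 water kidneys and 0.0374 CPM over the 3 NMN kidneys (3 counts over the group).

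The NMN effect at 2680 mg/kg/d was compared between organs over 12 libraries. The fit took each liver and kidney as a separate mouse. Same-numbered organs may come from the same mouse: Dbp was lowest in replicate 1 of both organs, with water and with NMN. What a shared mouse would change in the p-values was not tested. Cyp39a1 differed: its log2 difference between NMN and water was larger in liver than in kidney, where it did not pass, by 1.24 ± 0.25 on the log2 scale (SE), adjusted p 0.0212 by edgeR. It was the only member past that test, which 2.65% of 15811 genes passed. The call was lost without water kidney replicate 2 or 3 or NMN kidney replicate 2 or 3 (adjusted p 0.0576, 0.0715, 0.0573 and 0.0662 by edgeR), with the difference between 1.08 and 1.39. For Cyp27a1 the difference was 0.39 ± 0.19 (SE), adjusted p 0.269 by edgeR. For Slc10a1, which fell in liver, the difference was positive, at 0.72 to 0.77 over 4 other settings, and passed in none. That value rests on few kidney counts, 8, 11 and 15 in water and 6, 4 and 5 in NMN kidneys. Slc10a1 had too few counts to be tested within those kidneys. Whether its fall differed between organs therefore cannot be told. At 1340 mg/kg/d no gene passed between organs, 5.79% did so at an unadjusted p under 0.05, of the members Nr1h4 alone, and DESeq2 called 27 genes and no member.

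Genes of the same pathway outside the 10 were counted next, from 3 lists. Of 13 other transporters 10 were tested in liver at 2680 mg/kg/d, of which 3 rose and 1 fell, against 3.05% and 4.03% of all tested genes. Their median log2 fold change was 0.71, against 0.0045 over all tested genes. Abcc3, a pump that returns organic anions and bile acids to blood, read 119, 162 and 191 CPM in water livers and 242, 338 and 459 CPM in NMN livers. The groups did not overlap, and the log2 difference was 1.14 ± 0.24 (SE), adjusted p 0.0245 by edgeR. Abcc2, the canalicular pump for organic anion conjugates, read 246, 299.8 and 346 CPM in water and 567, 379 and 628 CPM in NMN livers, also without overlap (0.82 ± 0.20 on the log2 scale, SE, adjusted p 0.0345 by edgeR). Abcb4, the canalicular phospholipid flippase, read 133, 154 and 166 CPM in water and 224, 221 and 246 CPM in NMN livers (0.61 ± 0.14, adjusted p 0.0266 by edgeR). Its NMN livers all lay above its water livers. Slco1a1, an uptake carrier of the sinusoidal membrane, read 377, 408 and 532 CPM in water and 164, 275 and 204 CPM in NMN livers. It fell without overlap between groups, as did Slc10a1, with a log2 difference of -1.03 ± 0.20 (SE), adjusted p 0.0161 by edgeR.

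These calls depended on single libraries. Abcc3 and Abcb4 each lost theirs without water replicate 1, water replicate 2 or NMN replicate 3 (adjusted p from 0.076 to 0.114 by edgeR), Slco1a1 without water replicate 2, water replicate 3 or NMN replicate 3 (adjusted p from 0.0525 to 0.0684), and Abcc2 without any 1 library but NMN replicate 2 (adjusted p from 0.0525 to 0.132). Abcc2 also lost its call in the fit to all 14 livers (adjusted p 0.0711 by edgeR).

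**Figure D4:**
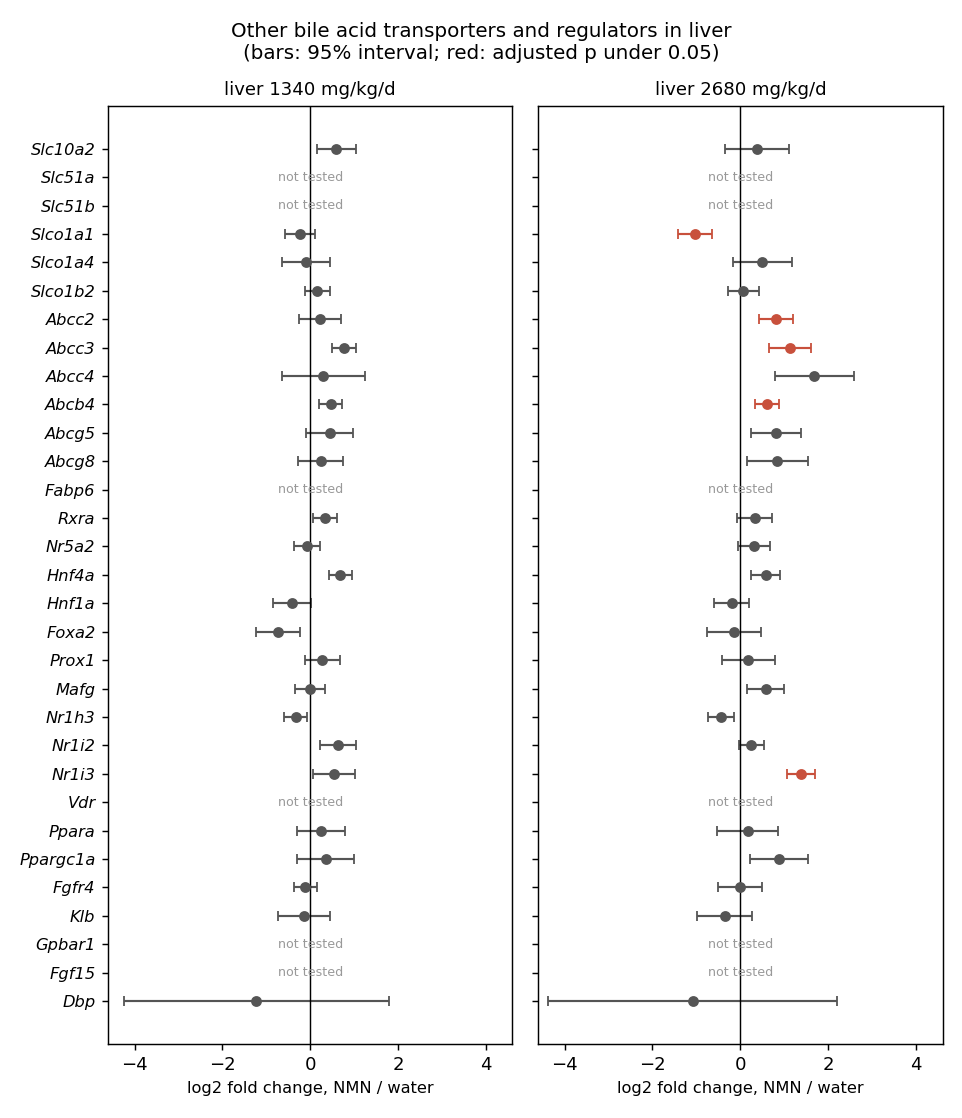
Log2 fold change for NMN against water in liver of 13 other bile acid transporters and 18 regulators on both schedules, with the fitted value as a point and its 95% interval as a bar, red where the adjusted p was under 0.05. At 2680 mg/kg/d Abcc2, Abcc3, Abcb4 and Nr1i3 lie to the right and Slco1a1 to the left in red, and no gene is red at 1340 mg/kg/d.

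Of 18 other regulators 15 were tested in liver at 2680 mg/kg/d, and Nr1i3 alone passed, a share near the 7.08% of all tested genes. Nr1i3, the receptor CAR, which controls genes of drug and bile acid clearance, read 48.9, 58.6 and 47.2 CPM in water and 116, 157 and 129.8 CPM in NMN livers. All NMN livers lay above the water livers, by 1.38 ± 0.16 on the log2 scale (SE, adjusted p 0.00141 by edgeR), but its exons overlap those of Tomm40l, so reads of the pair may have been mixed or left out of the counts. Hnf4a, a master regulator of hepatocyte genes, had a log2 difference of 0.57 ± 0.17 (SE, adjusted p 0.0663 by edgeR), and was past the threshold in 4 of 6 other settings, with DESeq2 (adjusted p 0.0271), no filter (0.00461), the replicate block (0.0408) and the fit to all 14 livers (0.0379). The median log2 fold change of the 15 regulators was 0.18. Of 12 other synthesis genes 11 were tested and none passed, with a median of -0.02. The nearest were Scp2, a sterol carrier and peroxisomal thiolase, at -0.59 ± 0.16 (SE, adjusted p 0.0518 by edgeR) and Akr1c6 at -0.45 ± 0.15 (SE, adjusted p 0.0927 by edgeR). At an unadjusted p under 0.05 there were 3 of the 11 synthesis genes, near the 24.6% of all tested genes. Scp2 was past the threshold in 4 of 6 other settings, with DESeq2 (adjusted p 0.02), no filter (0.00193), 10 counts in every library (0.0492) and the fit to all 14 livers (0.0462).

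At 1340 mg/kg/d none of the genes of the 3 lists passed in liver. Abcc3 came nearest, at 152, 168, 179.5 and 135 CPM in water and 262, 311, 274 and 229 CPM in NMN livers, with no overlap (0.76 ± 0.14 on the log2 scale, SE, adjusted p 0.0801 by edgeR). Without NMN replicate 4 its adjusted p was 0.0391. Abcb4 (0.46 ± 0.14, adjusted p 0.446 by edgeR) had groups without overlap too. Of the regulators, Hnf4a was at 537 ± 57.6 CPM in water and 859 ± 102 CPM in NMN livers (SD, n = 4 each), adjusted p 0.117 by edgeR, and Nr1i2, the receptor PXR, at 59.2 ± 6.37 and 91.4 ± 30.3 CPM, adjusted p 0.511. Of the synthesis genes, Hsd17b4, a peroxisomal enzyme of side-chain shortening, was at 306 ± 19.5 and 370.4 ± 29.9 CPM (adjusted p 0.689 by edgeR), and Cyp2c70, which makes muricholic acids, at 853 ± 362 and 578 ± 137 CPM (adjusted p 0.785). An unadjusted p under 0.05 was reached at 1340 mg/kg/d by 1 of 11 synthesis genes, 3 of 10 transporters and 6 of 15 regulators, against 6.86% of all tested genes, and DESeq2 called Abcc3 and Hnf4a (adjusted p 0.000399 and 0.00185). With no filter both were called as well (adjusted p 0.00223 and 0.00944 by edgeR).

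Across the 14 livers, after the mean of each schedule was removed, the genes whose levels most resembled those of Cyp39a1 were Gm42047 (Pearson's r 0.953), Ccdc84 (0.949) and Mgea5 (0.934), among 11507 genes compared. For Cyp8b1 they were Park7 (0.921), Ddx56 (0.919) and Elp3 (0.906), and for Cyp7a1 Rpap3 (0.848), Dennd1c (0.842) and Tmem42 (0.838). Between members the same measure was farthest from 0 for Cyp39a1 and Cyp8b1 (-0.77), Cyp8b1 and Baat (0.75), Nr1h4 and Slc10a1 (0.68), Cyp39a1 and Slc10a1 (-0.67) and Nr1h4 and Slc27a5 (0.66). These values share the same libraries and hold both the NMN effect and the variation among mice.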

How the data were processed

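RNA of 14 livers and 14 kidneys was studied. The authors mapped reads with STAR and used HTSeq for gene counts (strict intersection, strand ignored), and the deposited values are raw counts. The article's genome name matched no build, so the coordinates given are those of the RefSeq promoter windows alone. Of 54446 identifiers 53229 matched the GENCODE M21 annotation with version, 1180 without and 37 not at all. Lines that name no gene held 18.6% to 29.3% of the reads and were left out. No 2 libraries were identical.

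The tests were run in edgeR 4.0.16 (R 4.3.3): filterByExpr, TMM scaling and the robust quasi-likelihood test, with Benjamini-Hochberg adjustment over all tested genes and a threshold of 0.05. Standard errors (SE) were derived from each log2 fold change and its F statistic, and 95% intervals from the SE. Interactions tested schedule and organ, and the main fits of both organs had no term for the mouse. The code was tested on simulated data, in which 200 genes were changed by 2 on the log2 scale. Over the comparisons 2.76% to 9.63% of edgeR's calls were false, and 6.28% to 16.5% of DESeq2's. The simulated counts used edgeR's dispersions. Alternatives were DESeq2 1.42.0, its size factors, other filters, a replicate block, all 14 libraries of an organ, a stricter threshold and each library left out. Nothing says whether samples came from separate litters or days, so p-values measure the spread between these samples, and count-based limits cover counting error only. The article's authors normalized with DESeq2 and also tested with it, which was kept as an alternative.

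The members, lists and tests were chosen with earlier results of these data known. The text names all 10 members, the genes of the 3 other lists past the threshold in a liver comparison or otherwise the 2 with the smallest p per list, and for 3 members the 3 most alike genes. Markers were given for hepatocytes, for other cells of the liver and for kidney, gut and pancreas. Nr5a2, Dbp, Tomm40l and Apex2 were named besides.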

Additional observations from a re-analysis of the deposited data

Results flagged for a closer look

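Dixon's test at the 95% level, which sets the gap of the highest or lowest library against the range of its group, was run on 61 groups of 4 libraries, for the 10 members and, in liver, the genes named from the 3 other lists by the rule for named genes, Dbp not among them. It picked out 1 library, where chance would give about 3.05. Abcc2 read 451 CPM in water liver replicate 3 of the 1340 mg/kg/d schedule, against 227 to 259.7 CPM in the other water livers of that schedule.

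The NMN effect on Cyp39a1 at 2680 mg/kg/d differed between liver and kidney by 1.24 on the log2 scale in a test of the difference itself (edgeR's quasi-likelihood test, adjusted p 0.0212).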

How the results depend on the processing

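In liver at 2680 mg/kg/d the 3 called members were called under DESeq2, its size factors, both other filters, the replicate block and the fit to all 14 livers (no filter also called Cyp8b1, 4 members in all), and Cyp39a1 alone (1 member) under an adjusted p below 0.01 with a fold over 2 or under 0.5. Leaving out 1 library gave 1 to 3 called members there, 0 to 1 for the organ difference at 2680 mg/kg/d and 0 to 1 for water livers between schedules. In kidney at 1340 mg/kg/d, DESeq2 and no filter each called 1 member (Nr1h4), and at 2680 mg/kg/d no filter called 1 (Cyp27a1). No filter called 2 members for the organ difference (Cyp39a1 and Nr0b2) and 2 between water livers (Nr0b2 and Slc10a1). A filter of 10 counts in every library left 5 members called between organs, since the others were no longer tested. Scaling by library size alone, chosen after seeing the data, called 9 members between organs, with Nr1h4 reversed (-0.21). The cause of the other changes was not tested.

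The replicate numbers were not taken to pair the mice. Not every same-numbered pair of a water and an NMN library of an organ had a correlation of deviations over 0.1 (in liver at 2680 mg/kg/d 0.0577, 0.143 and 0.151, at 1340 mg/kg/d from -0.034 to 0.155). Such values cannot show that the mice were unpaired, and liver was not compared with kidney in this way. With the replicate block 1 member (Cyp39a1, 1.27, adjusted p 0.0481 by edgeR) was called for the schedule difference, and no other count of members changed.

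Counts of all called genes moved more: in liver at 1340 mg/kg/d from 2 to 74 (DESeq2), 44 (no filter), 16 (block), 6 (all livers) and 0 (strict), and at 2680 mg/kg/d from 883 to 1450, 1785 and 135 (DESeq2, no filter, strict), with 211 to 1308 on leaving out 1 library. Leaving out 1 library gave 0 to 18 in liver at 1340 mg/kg/d, 5 to 67 (from 18) and 3 to 191 (from 61) in kidney at 1340 and 2680 mg/kg/d, 7 to 25 (from 10) for the schedule difference, 118 to 1347 (from 419) and 0 to 9 (from 0) for the organ difference at 2680 and 1340 mg/kg/d, and 310 to 657 (from 557) between water livers, so the shares of all genes given beside the members move with single libraries. In kidney they were 159, 269, 75 and 2 (DESeq2, no filter, block, strict) at 1340 mg/kg/d, and 236, 514, 92, 35 and 3 (with all kidneys as the fourth) at 2680 mg/kg/d. For the schedule difference they were 98 and 71, for the organ difference 1234 and 1307 at 2680 and 27 and 9 at 1340 mg/kg/d (DESeq2, no filter; block 2), between organs 7909 and between water livers 305 (10 counts in every library), and 979 and 1236 between water livers (DESeq2, no filter).

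Without 1 library, log2 differences near 0 changed sign. In liver at 1340 mg/kg/d they ranged from -0.34 to 0.32 for Cyp8b1, -0.060 to 0.093 for Nr1h4, -0.081 to 0.34 for Nr0b2, -0.10 to 0.089 for Abcb11, -0.036 to 0.15 for Baat and -0.21 to 0.019 for Akr1c6, and at 2680 mg/kg/d from -0.17 to 0.082 for Cyp2c70. In kidney at 1340 mg/kg/d they ranged from -0.33 to 0.20 for Nr0b2, -0.74 to 0.12 for Slc10a1 and -0.55 to 0.14 for Baat, and at 2680 mg/kg/d from -0.11 to 0.30 for Nr1h4. The organ difference at 1340 mg/kg/d ranged from -0.10 to 0.33 for Cyp39a1, -0.36 to 0.50 for Slc10a1 and -0.032 to 0.18 for Cyp27a1, and water livers between schedules from -0.30 to 0.23 for Cyp8b1 and -0.016 to 0.069 for Slc27a5. The low kidney levels limit any statement on the genes not tested there.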
